A study of Mus musculus with 9 samples.

Results

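The transcripts of 9 genes of homologous recombination and the Fanconi anaemia pathway (Brca1, Brca2, Rad51ap1, Rad54l, Exo1, Blm, Fanca, Fancd2 and Fanci) were followed in mouse liver. They were chosen by symbol from a table of 21703 rows, and all 9 were found. RNA was sequenced from 9 livers of C57BL/6J mice aged 4 weeks, in 3 groups of 3. Every liver was from a mouse with R26-M2-rtTA, a doxycycline-dependent activator at the R26 locus, which is known to be active in most cell types; which liver cells were induced was not measured. The control and Mycl livers came from mice that also carried Col-TetOP-Mycl-ires-mCherry, and the c-Myc livers from mice with Col-TetOP-c-Myc-ires-mCherry instead. Controls were left without doxycycline; mice of the Mycl and c-Myc groups were given 0.2 ml of it intraperitoneally, at 2.0 mg/ml, and their livers were collected 48 h later. Both transgenes encode MYC family transcription factors. No mice treated with doxycycline but lacking a MYC transgene, and no untreated mice with the c-Myc transgene, were analysed here, so the drug, the line and the transgene cannot be told apart from these groups alone.

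Homologous recombination repairs a broken chromosome by copying the intact sister chromatid, which is present only after DNA replication. The broken end is first cut back to single-stranded DNA, which is then coated with protein and paired with the matching sequence. The Fanconi pathway detects strands that are chemically linked to each other at a stalled replication fork and passes the break that is made there to recombination. Transcripts of both pathways are known to be scarce in resting cells and more abundant in cycling cells, and most hepatocytes of a liver are at rest.

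Upstream sequence is shown for members that share a CCAAT box close to the gene start. RefSeq promoter windows (GRCm38.p6, the assembly that mm10 names) were found for 7 of the 9 genes. The last 100 bases before the gene start are printed 5′ to 3′ on the strand of the gene, with CCAAT, or ATTGG where the box lies on the opposite strand, in capitals.
Brca1, chr11:101551956-101552055, minus strand: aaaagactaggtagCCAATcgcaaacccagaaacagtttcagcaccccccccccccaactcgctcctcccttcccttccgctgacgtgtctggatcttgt
Rad54l, chr4:116123691-116123790, minus strand: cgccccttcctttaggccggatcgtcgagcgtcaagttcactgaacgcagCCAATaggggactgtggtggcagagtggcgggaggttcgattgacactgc
Fanca, chr8:123318577-123318676, minus strand: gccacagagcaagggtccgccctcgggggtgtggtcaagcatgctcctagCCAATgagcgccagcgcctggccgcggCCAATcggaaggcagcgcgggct
Rad51ap1, chr6:126939588-126939687, minus strand: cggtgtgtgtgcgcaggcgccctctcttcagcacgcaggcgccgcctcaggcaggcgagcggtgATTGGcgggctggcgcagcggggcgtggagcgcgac
A CCAAT box lay in these 100 bases in 4 of 7 members and in 18.9% of all 32841 windows. Over 250 bases it was found in 5 of 7 members, the further one being Blm, and in 33.9% of windows. The E-box CACGTG, the sequence MYC and MAX are known to bind, was found in 0 of 7 members over 250 bases and in 6.02% of windows. An E2F sequence (TTTCCCGC, TTTCGCGC, TTTGCCGC or TTTGGCGC) was found in 1 of 7, Brca2, and in 1.86% of windows. The cell cycle homology region TTTGAA was found in 0 of 7 and in 16% of windows. Both strands were searched, no match overlapped another, and the letters describe the window only. The RefSeq starts of Fanci and Blm lie 409 and 121 bases from the outermost GENCODE starts, so their windows cover other sequence than windows on those starts would.

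Library depth ran from 11013412 to 20079232 counts, with the lowest library in the Mycl group and the highest among controls. Levels are counts per 1e+06 counts of the library (CPM), with library sizes scaled by TMM. The IRES-mCherry reporter was at 0.316 to 1.09 CPM among controls, 52.3 to 270 CPM in Mycl livers and 76.4 to 282 CPM in c-Myc livers. Mycl was highest in the Mycl livers (49.1 to 234 CPM against 10.8 to 11.6 CPM in controls) and Myc in the c-Myc livers (81.8 to 270 CPM against 4.05 to 12.7 CPM), so every library matched its label. The 9 matched hepatocyte marker genes summed to 145000 to 165000 CPM among controls, 85900 to 154000 CPM in Mycl livers and 77300 to 115000 CPM in c-Myc livers. The labels number the livers within a group and do not say that each came from a separate mouse, so p-values measure the spread between these samples.

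All 9 recombination and Fanconi transcripts were higher in every induced liver than in every control, and higher in every c-Myc liver than in every Mycl liver. Such a separation upwards was seen in 13.2%, 22.6% and 13.7% of all tested genes for Mycl against controls, c-Myc against controls and c-Myc against Mycl, and downwards in 16.2%, 28.1% and 12% of them, but in 0 of the 9. Their summed level was 14.4 to 18.4 CPM among controls, 33.5 to 46.6 CPM in Mycl livers and 71.3 to 157 CPM in c-Myc livers. Adjusted p-values are from edgeR's quasi-likelihood test over all 12651 tested genes, and below 0.05 a gene is called changed. In c-Myc livers 9 of 9 rose against controls, where 11.8% of all tested genes rose. In Mycl livers 6 of 9 rose, where 2.24% of all tested genes rose, and Brca2, Blm and Exo1 did not pass. Between c-Myc and Mycl livers 8 of 9 were higher with c-Myc, where 4.14% of all tested genes were, and Rad51ap1 did not pass. None of the 9 fell, where 0.964%, 8.88% and 2.63% of all tested genes fell for Mycl against controls, c-Myc against controls and c-Myc against Mycl. The median log2 fold change was 3.41 for c-Myc against controls, 1.79 for Mycl against controls and 1.46 for c-Myc against Mycl, beside -0.05, 0.01 and -0.03 over all tested genes. The comparisons with controls share the same 3 control livers.

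**Figure D1:**
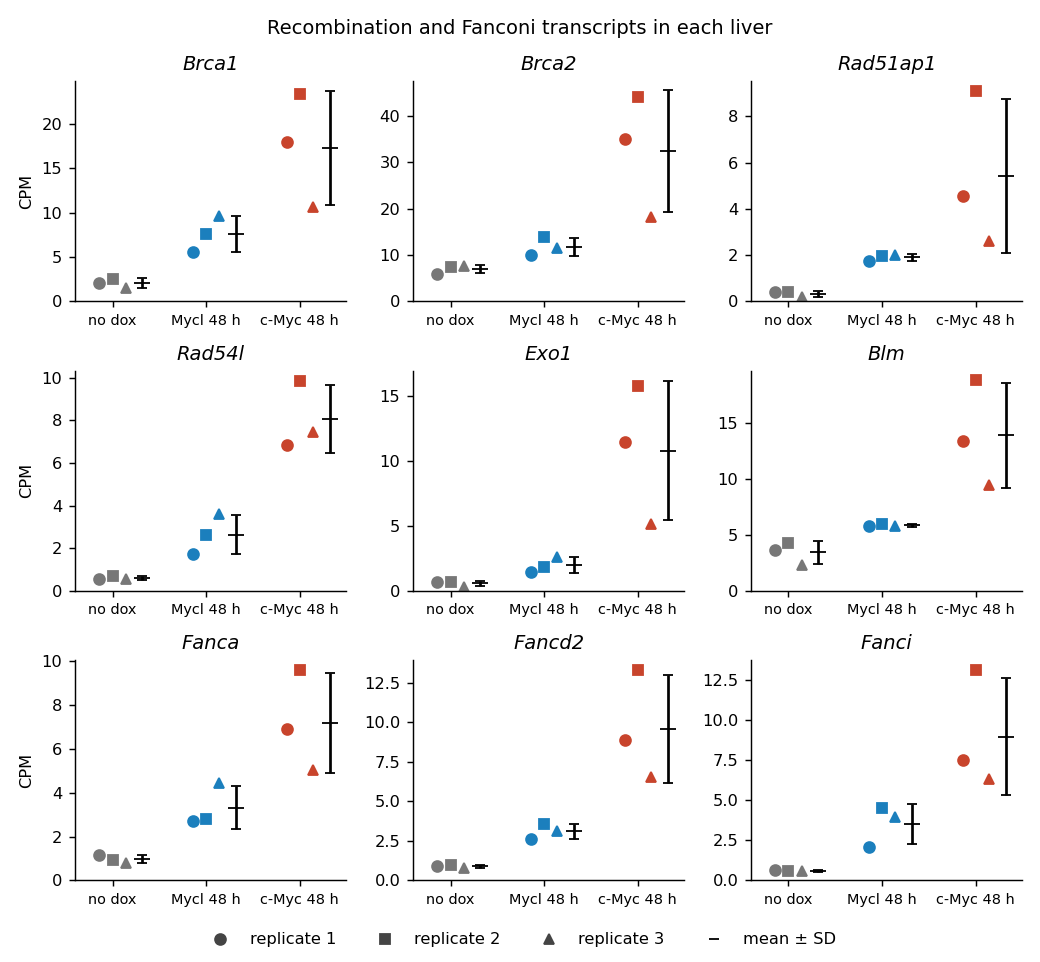
CPM of each of the 9 transcripts (vertical axis, from 0) in the 3 control, 3 Mycl and 3 c-Myc livers; symbols mark the replicate, and the black bar is the mean ± SD. For every transcript the 3 groups do not overlap, and replicate 2 is the highest c-Myc liver in all 9 panels.

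Few reads stood behind the control values. Counts of the 9 genes ran from 2 to 116 reads per control library, 16 to 255 per Mycl library and 39 to 845 per c-Myc library. All 9 passed the filter on low counts, which needs about 0.607 CPM in 3 libraries, taken without the TMM scaling used for the other levels. Of these, 5 reached that level in all 9 livers (Brca1, Brca2, Fanca, Fancd2 and Blm). The other 4 (Rad51ap1, Rad54l, Fanci and Exo1) passed through the induced livers, and for them a difference from the controls was built into the filter. Exons of Rad54l, Fanca, Fanci and Fancd2 overlap exons of Lrrc41, Zfp276, Polg and Fancd2os on the opposite strand, so their counts are less certain than those of the other members. Among the 5 that reached the level in all livers, edgeR called 3 higher in Mycl livers, 5 higher in c-Myc livers and 5 higher in c-Myc than in Mycl livers.

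Brca1 and Brca2 encode the large proteins of which BRCA1 promotes resection of the broken end and recruits BRCA2, which prepares the single-stranded DNA for pairing. Brca1 (ENSMUSG00000017146; chromosome 11, 101488764 to 101551955, minus strand, GRCm38) was at 2.08, 2.53 and 1.43 CPM among controls, 5.51, 7.59 and 9.63 CPM in Mycl livers, and 18.0, 23.4 and 10.6 CPM in c-Myc livers. The highest Mycl liver and the lowest c-Myc liver were close, and all Mycl livers stood well above the controls. Brca1 rose by 1.90 on the log2 scale with Mycl (SE 0.34, edgeR adjusted p = 0.0221) and by 3.09 with c-Myc (SE 0.34, edgeR adjusted p = 0.000567), and c-Myc exceeded Mycl by 1.19 (SE 0.31, edgeR adjusted p = 0.0465). Brca2 (ENSMUSG00000041147; chromosome 5, 150522630 to 150570329, plus strand) was at 5.86, 7.34 and 7.48 CPM among controls, 9.94, 13.8 and 11.5 CPM in Mycl livers, and 35.1, 44.1 and 18.1 CPM in c-Myc livers. Its groups did not overlap, but the step from control to Mycl was small, with a log2 fold change of 0.78 (SE 0.30) that did not pass (edgeR adjusted p = 0.182). With c-Myc it rose by 2.24 (SE 0.30, edgeR adjusted p = 0.00102), and c-Myc exceeded Mycl by 1.46 (SE 0.29, edgeR adjusted p = 0.0238).

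Rad51ap1 and Rad54l encode helpers of strand exchange: the product of Rad51ap1 stimulates strand pairing, and RAD54L is a motor protein that moves along DNA. Rad51ap1 (ENSMUSG00000030346; chromosome 6, 126923050 to 126939587, minus strand) was at 0.383, 0.379 and 0.159 CPM among controls, or 7, 6 and 2 reads. It was at 1.72, 1.95 and 2.01 CPM in Mycl livers and 4.56, 9.09 and 2.59 CPM in c-Myc livers, so the Mycl livers were nearly alike while the c-Myc livers spread 3.50-fold. With Mycl it rose by 2.55 on the log2 scale (SE 0.56, edgeR adjusted p = 0.0394), and with c-Myc by 4.06 (SE 0.52, edgeR adjusted p = 0.000901). The difference between c-Myc and Mycl was 1.51 (SE 0.41) and did not pass (edgeR adjusted p = 0.0558). Rad54l (ENSMUSG00000028702; chromosome 4, 116094264 to 116123690, minus strand) was at 0.547, 0.696 and 0.557 CPM among controls, 1.72, 2.60 and 3.59 CPM in Mycl livers, and 6.85, 9.87 and 7.45 CPM in c-Myc livers. It was the only member for which c-Myc replicate 1, and not replicate 3, was the lowest c-Myc liver. It rose by 2.14 with Mycl (SE 0.33, edgeR adjusted p = 0.0127) and by 3.73 with c-Myc (SE 0.32, edgeR adjusted p = 0.000311), a difference between the lines of 1.59 (SE 0.27, edgeR adjusted p = 0.0161).

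Exo1 encodes a nuclease that cuts the broken end back over long stretches, and Blm a helicase that takes part in this step and later takes apart the joined chromosomes. Exo1 (ENSMUSG00000039748; chromosome 1, 175880581 to 175913489, plus strand) was at 0.657, 0.696 and 0.318 CPM among controls, 1.45, 1.84 and 2.62 CPM in Mycl livers, and 11.5, 15.8 and 5.12 CPM in c-Myc livers. Of the 9 members it had the highest log2 fold change in c-Myc against control livers, 4.22 (SE 0.47, edgeR adjusted p = 0.000575), which ranked 48 among 12651 genes. It also had the highest in c-Myc against Mycl livers, 2.44 (SE 0.41, edgeR adjusted p = 0.0160), which ranked 31. Exo1 passed the filter through the induced livers, so its difference from controls and its rank of 48 are partly built in. In Mycl livers its log2 fold change of 1.79 (SE 0.51) did not pass (edgeR adjusted p = 0.0893). Blm (ENSMUSG00000030528; chromosome 7, 80454733 to 80535119, minus strand) was at 3.67, 4.30 and 2.31 CPM among controls, 5.78, 6.02 and 5.79 CPM in Mycl livers, and 13.4, 18.9 and 9.45 CPM in c-Myc livers. The 3 Mycl livers differed by no more than 1.04-fold. Blm had the lowest log2 fold changes with either transgene, 0.76 with Mycl (SE 0.29, edgeR adjusted p = 0.180, not passed) and 2.01 with c-Myc (SE 0.28, edgeR adjusted p = 0.00138), and c-Myc exceeded Mycl by 1.25 (SE 0.27, edgeR adjusted p = 0.0309).

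Fanca encodes a subunit of the Fanconi core complex, which attaches ubiquitin to the pair formed by FANCD2 and FANCI; that pair then clamps onto DNA at the lesion. Fanca (ENSMUSG00000032815; chromosome 8, 123268300 to 123318576, minus strand) was at 1.15, 0.949 and 0.796 CPM among controls, 2.71, 2.82 and 4.45 CPM in Mycl livers, and 6.90, 9.61 and 5.06 CPM in c-Myc livers. Mycl replicate 3 came close to c-Myc replicate 3. Fanca rose by 1.77 with Mycl (SE 0.33, edgeR adjusted p = 0.0255) and by 2.87 with c-Myc (SE 0.32, edgeR adjusted p = 0.000575), and the lines differed by 1.11 (SE 0.29, edgeR adjusted p = 0.0467). Fancd2 (ENSMUSG00000034023; chromosome 6, 113531682 to 113597017, plus strand) was at 0.930, 0.949 and 0.796 CPM among controls, 2.62, 3.58 and 3.11 CPM in Mycl livers, and 8.91, 13.3 and 6.52 CPM in c-Myc livers. Its partner Fanci (ENSMUSG00000039187; chromosome 7, 79391929 to 79450264, plus strand) was at 0.657, 0.569 and 0.557 CPM among controls, 2.08, 4.50 and 3.96 CPM in Mycl livers, and 7.50, 13.1 and 6.32 CPM in c-Myc livers. The partners had the same order among the c-Myc livers and among the Mycl livers, with Mycl replicate 1 lowest. Fancd2 rose by 1.79 with Mycl (SE 0.32, edgeR adjusted p = 0.0211) and by 3.41 with c-Myc (SE 0.31, edgeR adjusted p = 0.000322). Fanci rose by 2.56 with Mycl (SE 0.41, edgeR adjusted p = 0.0157) and by 3.89 with c-Myc (SE 0.40, edgeR adjusted p = 0.000440). Between the lines, c-Myc exceeded Mycl by 1.61 for Fancd2 (SE 0.27, edgeR adjusted p = 0.0157) and by 1.33 for Fanci (SE 0.33, edgeR adjusted p = 0.0406).

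**Figure D2:**
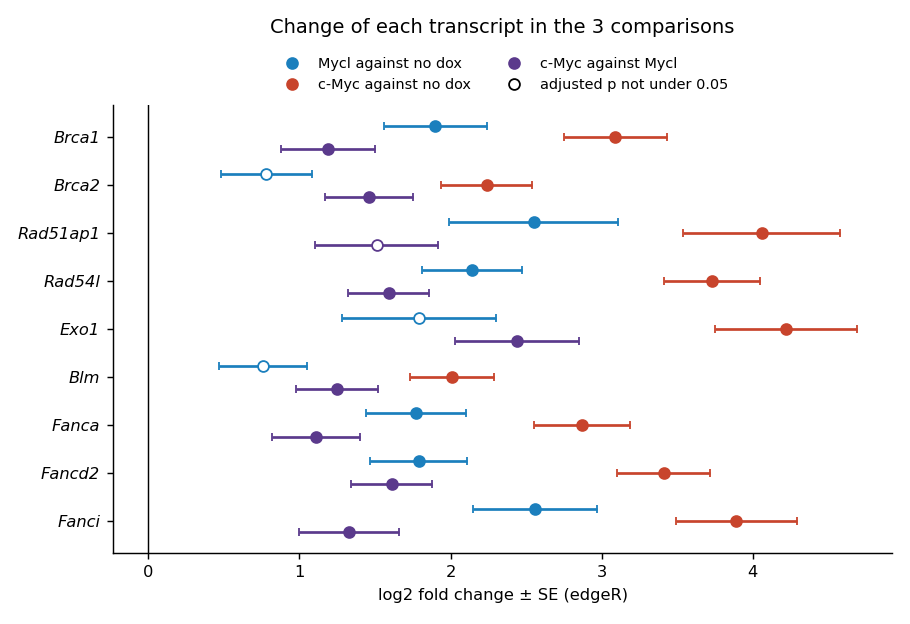
Log2 fold change ± SE of the 9 transcripts (horizontal axis) in each comparison by edgeR; filled points had an adjusted p under 0.05 and open points did not. All 27 values lie above 0, and Brca2 and Blm have the lowest values with Mycl, 0.78 and 0.76.

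The c-Myc calls of all 9 members held under all 18 alternative analyses, with adjusted p-values of at most 0.00799. The Mycl calls depended on the libraries fitted: 0 members passed without control replicate 1 or 3, 1 without control replicate 2 and 3 without Mycl replicate 3. The number of higher calls over all genes also changed with the library left out. With all libraries, limma-voom called 2 members (1.04% of all tested genes) and DESeq2 called 7 (5.88%). At an unadjusted p under 0.05, 8 members passed without control replicate 1 or 3. Over the 18 alternatives the Mycl log2 fold changes stayed between 0.61 and 2.86. For c-Myc against Mycl, 0 members passed when only these 6 libraries were fitted or without c-Myc replicate 1, 1 without c-Myc replicate 2, and 4 or 5 without any single control or Mycl library. In each of these fits 9 of 9 members passed at an unadjusted p under 0.05. For the same comparison limma-voom called 6 (3.39% of all tested genes) and DESeq2 9 (7.89%).

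Compared per kilobase of the longest coding transcript, Blm and Brca2 had the highest levels in controls, 0.718 ± 0.214 and 0.643 ± 0.0838 CPM per kilobase (SD, n = 3), and did not differ beyond their SD. Brca1 followed at 0.306 ± 0.0840 CPM per kilobase, below both by more than the SDs. Exo1 had the lowest control level, 0.0714 ± 0.0266 CPM per kilobase, and Fanca, Rad54l, Fancd2, Rad51ap1 and Fanci lay between 0.128 and 0.215 CPM per kilobase with neighbours within their SD. In c-Myc livers the order ran from Brca2 at 3.03 ± 1.23 to Exo1 at 1.38 ± 0.687 CPM per kilobase, and no neighbours in the order differed beyond their SD. Exo1 was also lowest in Mycl livers, 0.253 ± 0.0766 CPM per kilobase, apart from Fancd2 above it at 0.563 ± 0.0870. The members with the highest control levels per kilobase, Blm and Brca2, were those with the lowest log2 fold changes in both comparisons with controls. The same control values enter both measures, so part of such a relation is built in, and it was not tested.

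Within each induced group most members had the same lowest liver. Mycl replicate 1 was the lowest Mycl liver for 9 of 9 members, c-Myc replicate 2 the highest c-Myc liver for 9 of 9, and c-Myc replicate 3 the lowest for 8 of 9. How many of all genes had these orders was not counted. Mycl replicate 1 was also the library of lowest depth, at 11013412 counts. Over all genes its counts differed from those of replicates 2 and 3 by a chi-square of 194.03 and 206.95 per degree of freedom. Between replicates 2 and 3 this value was 57.04. The order of the livers was not recomputed after removal of a trend with transcript length in each library. Whether depth or transcript length bears on this order was not tested. The reporter had the same order as the summed level, with 52.3, 146 and 270 CPM in Mycl replicates 1, 2 and 3 and 221, 282 and 76.4 CPM in c-Myc replicates 1, 2 and 3. Summed levels of the 9 transcripts were 33.5, 44.7 and 46.6 CPM in those Mycl livers and 113, 157 and 71.3 CPM in those c-Myc livers. The c-Myc liver with the least reporter thus had a higher summed level than the Mycl liver with the most. In control replicate 3, which was lowest for 7 of 9 members, the sum was 14.4 CPM. Each point is a single liver, and no test was made of this relation.

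**Figure D3:**
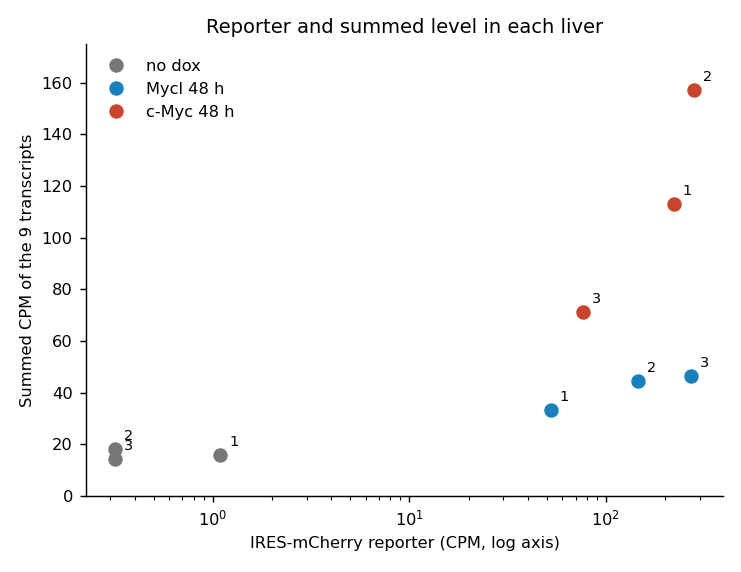
Summed CPM of the 9 transcripts (vertical axis) against IRES-mCherry reporter CPM (horizontal log axis) in each of the 9 livers, with replicate numbers beside the points. The c-Myc livers lie at 71.3 to 157 CPM and the Mycl livers at 33.5 to 46.6 CPM over overlapping reporter ranges.

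Markers of cycling cells stood beside these values. Mki67, a protein of dividing cells, was at 11.4, 15.9 and 6.68 CPM among controls, 24.9, 47.7 and 56.8 CPM in Mycl livers, and 74.4, 133 and 55.2 CPM in c-Myc livers. Of the 5 proliferation markers (Mki67, Top2a, Cdk1, Ccnb1 and Ccna2), 5 rose with Mycl and 5 with c-Myc, and 1, Top2a, was higher in c-Myc than in Mycl livers (log2 fold change 1.50, SE 0.35, edgeR adjusted p = 0.0362). When a single library was left out, 0 to 5 passed for Mycl against controls and 0 to 3 for c-Myc against Mycl. Over all tested genes 2.24% were called higher with Mycl, 11.8% with c-Myc and 4.14% in c-Myc against Mycl livers. The mean log2 CPM of the 9 members minus that of the 5 markers was -1.90 to -1.38 in controls, -2.17 to -1.90 in Mycl livers and -1.81 to -1.29 in c-Myc livers. Measured against 21 genes of the replication helicase, polymerases and clamp loader, the difference was -2.12 to -1.83 in controls, -1.74 to -1.17 in Mycl livers and -1.32 to -0.99 in c-Myc livers. Relative to the replication genes the members were therefore higher in every induced liver than in every control. The mean of the members includes Rad51ap1, Rad54l, Fanci and Exo1, which passed the filter through the induced livers. It was not repeated without them, so part of this difference may come from the filter. Relative to the proliferation markers the c-Myc livers overlapped with the controls, and every c-Myc liver lay above every Mycl liver. In whole liver, more cycling cells and more transcript per cycling cell cannot be told apart.

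Other recombination genes also rose in part. Of 38 other homologous recombination genes, 21 rose and 17 did not pass with c-Myc, with a median log2 fold change of 0.92. Among all tested genes 11.8% rose with c-Myc and 2.24% with Mycl. Bard1, the partner of BRCA1, rose by 3.67 with c-Myc (SE 0.41, edgeR adjusted p = 0.000575). It had 7, 20 and 7 reads in controls and passed the filter through the induced livers, so this difference is partly built in. Palb2, the bridge between BRCA1 and BRCA2, rose by 1.93 with c-Myc (SE 0.33, edgeR adjusted p = 0.00358); with Mycl it had 0.45 (SE 0.35) and did not pass (edgeR adjusted p = 0.491). Fignl1, an ATPase of recombination, had the highest c-Myc value of the list at 4.50 (SE 0.39). With Mycl, 5 of the 38 rose, among them Fignl1 and Bard1, and 33 did not pass, with a median of 0.44; leaving out a single library gave 0 to 6.

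Other Fanconi genes rose in part. The shares of all tested genes that rose were 11.8% with c-Myc and 2.24% with Mycl, and 8.88% fell with c-Myc. With c-Myc, 9 of 21 rose and 12 did not pass, with a median log2 fold change of 0.34. Fancb, an X-linked core complex subunit, rose by 2.96 (SE 0.34, edgeR adjusted p = 0.000614), Cenps, a histone-fold partner of FANCM, by 2.98 (SE 0.44, edgeR adjusted p = 0.00168), and Ube2t, the enzyme that supplies ubiquitin for FANCD2, by 2.12 (SE 0.41, edgeR adjusted p = 0.00632). Usp1, which removes that ubiquitin, rose by 0.71 (SE 0.19, edgeR adjusted p = 0.0259). Cenps had 3 reads in each control and Ube2t 12, 10 and 6, and both passed the filter through induced livers. Their differences from controls are therefore partly built in. The c-Myc count was 4 to 12 when single libraries were left out and 14 with library totals. With Mycl only Fancb of the 21 rose (1.57, SE 0.36, edgeR adjusted p = 0.0442), and leaving out a single library gave 0 to 1. Of 15 other genes of resection and resolution, 7 rose, 1 fell and 7 did not pass with c-Myc, and 1 rose and 14 did not pass with Mycl (0 to 2 when a single library was left out). The gene called with both was Rmi2, a subunit of the complex that works with BLM, at 3.18 with Mycl (SE 0.48, edgeR adjusted p = 0.0113) and 4.49 with c-Myc (SE 0.45, edgeR adjusted p = 0.000377). Rmi2 stood at 0.153 CPM in controls, with 2, 3 and 2 reads, and also passed the filter through the induced livers. The gene that fell, the helicase Wrn, had -0.42 (SE 0.12, edgeR adjusted p = 0.0366) and did not pass with library totals (-0.06, edgeR adjusted p = 0.790).

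**Figure D4:**
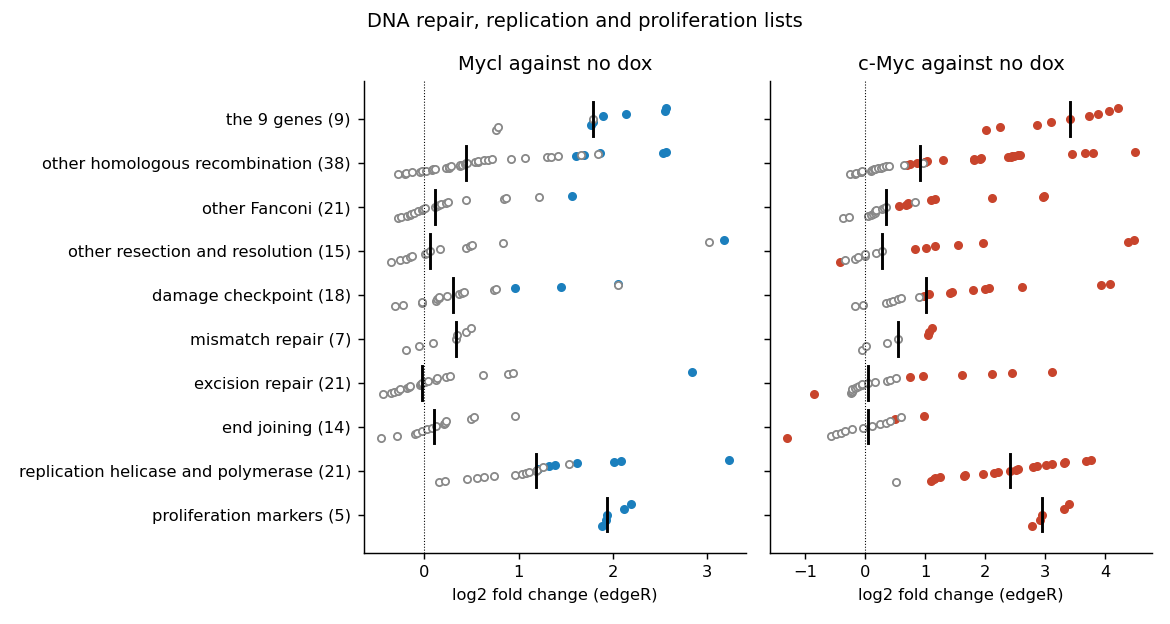
Log2 fold changes by edgeR (horizontal axis) of the 9 genes and of 9 other lists, with the number of tested genes in brackets; filled points had an adjusted p under 0.05 and the black line is the list's median. With c-Myc the 9 genes have a median of 3.41, the proliferation markers 2.94, the replication list 2.42 and the other recombination genes 0.92. Of the 9 genes, Rad51ap1, Rad54l, Fanci and Exo1 passed the filter through the induced livers. Some genes of the other lists, such as Cenps, Rmi2 and Neil3, did so too. The genes and lists were chosen with earlier results of these data known, so the order of the medians is a description only.

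Checkpoint kinases that act with these pathways were also measured. With c-Myc 11.8% of all tested genes rose, and with Mycl 2.24%. Of 18 damage checkpoint genes, 10 rose and 8 did not pass with c-Myc, and 3 rose and 15 did not pass with Mycl (0 to 5 when a single library was left out). Chek1, the kinase of the replication checkpoint, rose by 2.06 with Mycl (SE 0.33, edgeR adjusted p = 0.0163) and 3.94 with c-Myc (SE 0.32, edgeR adjusted p = 0.000311). H2afx, the histone variant phosphorylated at breaks, rose by 0.96 (SE 0.20, edgeR adjusted p = 0.0376) and 2.06 (SE 0.21, edgeR adjusted p = 0.000377) in the same order. Chek1 had 15, 17 and 7 reads in controls and needed the induced livers to pass the filter, so its differences from controls are partly built in. Of the 21 replication genes, 20 rose with c-Myc and 7 with Mycl, the latter 1 to 12 when a single library was left out.

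The 10 genes whose log2 CPM was most like the mean standardised level of the 9 members had a Pearson r of 0.990 to 0.992 over the 9 livers, against a median of -0.117 over 11912 genes. They were Mbd3, Lig1, Jpt2, Hells, Neurl1b, Uhrf1, BC055324, Foxm1, Zranb3 and Ercc6l. Likeness of order did not mean likeness of size: Uhrf1 was at 1.82 ± 0.780 CPM among controls and 61.1 ± 31.1 CPM with c-Myc (SD, n = 3), while Mbd3 was at 34.6 ± 0.998 and 57.7 ± 3.48 CPM. Each member had an r of 0.945 (Brca2) to 0.995 (Fancd2) with the mean of the other 8. The 9 livers share their group means and scaling factors, so r is given as a description.

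Markers of other cell types changed in some groups. Beside them, 2.24% of all tested genes rose and 0.964% fell with Mycl, and 11.8% rose and 8.88% fell with c-Myc. Of 6 tested neutrophil and monocyte genes, Ccr2 and Itgam rose with both transgenes, and the 8 listed genes summed to 8.35 to 10.5 CPM among controls, 23.7 to 31.9 CPM in Mycl livers and 17.3 to 29.6 CPM in c-Myc livers, with Mpo and Elane, which mark granulocyte precursors, at a mean under 0.5 CPM in every group. Kupffer cell and macrophage markers summed to 425 to 497, 456 to 591 and 268 to 380 CPM in the same order. Of the 10, Marco rose with Mycl, and Clec4f and Vsig4 fell with c-Myc, calls that library totals did not make (edgeR adjusted p = 0.0535 and 0.199). Against Mycl livers 4 of the 10 were lower with c-Myc (Clec4f, Vsig4, C1qa and C1qb), as were 2.63% of all tested genes. These calls held with library totals (edgeR adjusted p = 0.0204 to 0.0467). Leaving out a single library gave 0 to 8 lower. Erythroid markers summed to 140 to 186, 91.4 to 159 and 87.3 to 98.7 CPM. This sum includes Tfrc, which went the other way with means of 12.2, 39.7 and 37.7 CPM. Of 4 tested erythroid genes, Slc4a1 and Alas2 fell with c-Myc, by 3.79 and by 1.44 on the log2 scale, while the transferrin receptor gene Tfrc rose by 1.63 with c-Myc and by 1.70 with Mycl. Lymphocyte markers were at 6.62 to 10.4, 5.75 to 8.77 and 3.45 to 5.92 CPM. Of these, Cd4 fell with c-Myc, a call not made with library totals (edgeR adjusted p = 0.0888) or by limma-voom (limma-voom adjusted p = 0.0518). Endothelial markers were at 370 to 473, 242 to 401 and 248 to 328 CPM, and stellate and cholangiocyte markers at 381 to 478, 332 to 678 and 590 to 1120 CPM. Of the 10 genes of this last list, Col1a1 and Des rose with c-Myc and the median log2 fold change was -0.03. Without Col1a1 the list summed to 335 to 416 CPM among controls, 239 to 381 CPM in Mycl livers and 297 to 336 CPM in c-Myc livers. The part of these cells in the levels of the 9 transcripts was not tested.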

How the data were processed

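RNA of 9 livers was purified with a column kit and sequenced from libraries made with a directional kit, per the labels' protocols. The authors deposited raw read counts, whole numbers for each gene and for the reporter. The submitters' processing notes name cutadapt 3.0, STAR 2.7.8a, HTSeq 0.11.2, DESeq2 1.30.0 and mm10; for the annotation release and the strand setting, the sources used here give nothing. Symbols were found for 21588 of 21702 Ensembl identifiers, and positions and lengths came from GENCODE M21 (GRCm38). On the opposite strand, exons of Rad54l overlap Lrrc41 by 1184 nt, of Fanca Zfp276 by 920 nt, of Fanci Polg by 921 nt and of Fancd2 Fancd2os by 257 nt, and such reads may be lost or shared.

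The test was edgeR 4.0.16 in R 4.3.3: filterByExpr with a minimum count of 10 (12651 genes), TMM, and a quasi-likelihood fit of all 9 libraries by group with 6 residual degrees of freedom. P-values were adjusted by Benjamini-Hochberg over all tested genes, and 0.05 was the threshold. The SE is the log2 fold change divided by the square root of F. Mean log2 CPM used a prior count of 2, which draws low values together. Total counts of 11013412 to 20079232 limit the precision of low counts, and replicate pairs differed by more than sampling noise. The procedure was also run on simulated counts with 200 genes changed in the Mycl group only. More genes than that were called in these data, so the simulation does not show how the procedure performs on them. Its outcome is not reported here. Named genes were the 9 members, Palb2, the transgenes, the proliferation markers, up to 4 called genes of each other list with the smallest adjusted p and the 10 genes of most similar pattern. Some genes that the rule names are not reported here. Usp1, Wrn and Xpa fall outside this rule and were chosen after their values were seen. The members and lists were chosen with earlier results of these data known. Alternatives were other scalings and filters, DESeq2 1.42.0, limma-voom (limma 3.58.1), the 6 libraries compared, a replicate block, each library left out, and, chosen after seeing the data, removal of a transcript length trend.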

Additional observations from a re-analysis of the deposited data

How the results depend on the processing

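No member changed direction in any comparison or alternative, and the 9 c-Myc calls against controls were kept in all. Without a single library, 0 to 7 members were called higher for Mycl against controls, 9 to 9 for c-Myc against controls and 0 to 9 for c-Myc against Mycl, and 0 lower each time; limma-voom called 2 for Mycl, and the fit of only the 6 libraries compared called 0 for c-Myc against Mycl. Over all genes, leaving out a library gave 17 to 539 higher and 9 to 178 lower for Mycl (main 283 and 122), 897 to 2402 and 300 to 1844 for c-Myc (1490 and 1124), and 40 to 979 and 27 to 572 between them (524 and 333). Library totals gave 69 lower for Mycl, 3181 higher and 337 lower for c-Myc, and 1456 higher between them; they moved the median log2 fold change of all genes to 0.14, 0.31 and 0.20, and the share of higher calls from 69.9%, 57.0% and 61.1% to 83.2%, 90.4% and 86.7%. DESeq2 gave 744 and 342 for Mycl and 998 and 745 between them, and limma-voom 132 and 68 for Mycl. Only the 6 libraries compared gave 64 lower for Mycl, 2325 and 1784 for c-Myc and 35 and 39 between them. Removal of the length trend gave 809 higher between them. The cause of these shifts was not tested.

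The replicate numbers were not used to pair the livers in the main fit. Same-numbered deviations correlated at -0.19 to 0.31, and not every liver correlated best with its own number. With groups of 3 livers this check cannot settle whether the numbers pair them. With the replicate block 69 genes were lower for Mycl, and 6, 9 and 6 members were called higher in the 3 comparisons. Depth limits the control values most, at 2 to 7 reads for Rad51ap1.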

Other observations

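Genes of other repair pathways were measured beside those of recombination. Of 14 tested end joining genes, which rejoin breaks without a template, 2 rose with c-Myc, Xrcc6 at 0.98 on the log2 scale (SE 0.17, edgeR adjusted p = 0.00351) and Xrcc5 at 0.49 (SE 0.15, edgeR adjusted p = 0.0384), and 1 fell, Paxx at -1.30 (SE 0.38, edgeR adjusted p = 0.0364; 0.0722 with library totals), beside 11.8% and 8.88% of all tested genes that rose and fell. Leaving out a single library gave 1 to 3 higher and 0 to 3 lower. With Mycl 0 of these 14 passed by edgeR, DESeq2 or limma-voom, and 2 had an unadjusted edgeR p under 0.05. Of 7 mismatch repair genes, 3 rose with c-Myc (1 to 5 when a single library was left out), among them Msh6 at 1.04 (SE 0.23, edgeR adjusted p = 0.0124).

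Of all tested genes, 11.8% rose and 8.88% fell with c-Myc, and 2.24% rose with Mycl. Of 21 tested genes of excision repair, 6 rose, 1 fell and 14 did not pass with c-Myc. Among those that rose was Ung, which removes uracil from DNA, at 2.44 (SE 0.33, edgeR adjusted p = 0.00112). The gene that fell was Xpa, a scaffold of nucleotide excision repair, at -0.86 (SE 0.18, edgeR adjusted p = 0.00952; 0.0775 with library totals). With Mycl 1 of the 21 passed, Neil3, a glycosylase known to act on linked strands, at 2.84 (SE 0.43, edgeR adjusted p = 0.0106), and leaving out a single library gave 0 to 2. Neil3 rose by 3.12 with c-Myc (SE 0.42, edgeR adjusted p = 0.00105), and its difference between c-Myc and Mycl livers, 0.28 (SE 0.32), did not pass (edgeR adjusted p = 0.609). Neil3 had 3, 7 and 2 reads in controls and passed the filter through the induced livers, so its differences from controls are partly built in.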
